A study of Mus musculus with 6 samples.

Results

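The genes described here encode the enzymes that take glucose to lactate, the kinases that hold pyruvate back from the mitochondrion, and the enzymes of the pentose phosphate pathway. A fixed list of 32 gene symbols chose them, by matching the symbol given in the deposited table. They had 33 entries among 21959 genes, because Aldoa was listed under 2 Ensembl identifiers, and 29 entries had enough counts to be tested, out of 10177 tested genes. The rule reads only the symbols, but the list was drawn up with earlier results of these data known.

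The recipient cells were wild-type mouse macrophages grown in culture from bone marrow (BMDMs). They had spent 24 h in a mixture of 1 part conditioned medium and 1 part fresh medium. The conditioned medium came from alveolar macrophages, the resident phagocytes of the lung air spaces, taken from mice of 8 to 12 weeks and kept in culture for 48 h. In 3 libraries (N1, N2 and N3) these donor cells lacked HTR2C, the serotonin receptor 2C, and in the other 3 (P1, P2 and P3) they carried it. The labels do not say whether the numbered samples are separate cultures, mice or batches of medium, so p-values here reflect only how much these 6 libraries vary, possibly for technical reasons. Htr2c itself had 0 counts in all 6 libraries; the sort was applied to the donor cells, so this does not check the labels. All groups received conditioned medium, and no untreated BMDMs were analysed here.

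Glycolysis splits glucose into pyruvate in the cytosol, yielding ATP without oxygen, and lactate dehydrogenase then regenerates the NAD+ it consumes. The pentose phosphate pathway branches off at glucose 6-phosphate. Its oxidative arm makes NADPH, used by the phagocyte oxidase and by antioxidant systems, and its non-oxidative arm returns sugar phosphates to glycolysis. Macrophages activated by microbial products are known for a shift to glycolysis, in which Hk2, Pfkfb3, Ldha and the glucose transporter Slc2a1 are commonly induced through HIF-1 alpha.

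Total counts were 12843971 to 16031723 per library. The labelled cell type was matched by its markers: all 7 macrophage markers checked were tested, with summed levels of 19970 to 22220 CPM (read counts relative to the library's size, with TMM factors) in N libraries and 19330 to 22590 CPM in P libraries. Lyz2, which neutrophils also express, gave 16030 to 18630 CPM of each sum, and the other 6 markers summed to 3241 to 3929 CPM and 3092 to 3961 CPM. Among these Csf1r, the receptor for the macrophage growth factor, had means of 105.6 and 163.8 CPM (adjusted p = 0.141, edgeR). The fold change was positive for 4 of the 7 macrophage markers. The means of the others were lower in P libraries: Adgre1 at 1286 and 1220 CPM, Cd68 at 1257 and 1163 CPM, and Lyz2 at 17670 and 16970 CPM. Neutrophil markers summed to 953 to 1176 CPM in N libraries and 1123 to 1415 CPM in P libraries, of which S100a8 gave 581 to 925 CPM. The fold change was positive for 8 of the 9 tested (of 12), where 52.1% of all tested genes had a positive one. Ly6g and Cxcr2 had 0 counts everywhere. At an unadjusted p under 0.05 (edgeR), 3 were higher and 1 lower, against 7.9% and 8.71% of all tested genes. The groups did not overlap for S100a9, Camp and Csf3r, which were higher. Mmp8 was lower, at 45.95 to 57.51 CPM in N and 30.55 to 40.65 CPM in P libraries. Over all tested genes, the groups did not overlap for 10.9% that were higher and 11.5% that were lower. The sums of 2 other lists did not overlap between the groups, at low levels. Mast cell and basophil markers summed to 10.75 to 14.7 CPM in N and 7.76 to 10.65 CPM in P libraries, and B cell markers to 1.075 to 2.03 CPM and 2.05 to 2.71 CPM. Fibroblast markers summed to 57.95 to 67.5 CPM and 61.6 to 76.8 CPM, and the sums of dendritic, T and NK, erythroid and alveolar macrophage markers overlapped too. Singly, the fibroblast marker Pdgfrb was higher, at 3.16 to 4.50 CPM in N and 5.32 to 7.27 CPM in P libraries. Dcn, of the same list, was lower, at 32.1 to 33.9 CPM and 27.4 to 29.3 CPM. The part of these cells in the results was not tested. The closest pair of libraries was N2 with P1, which the labels put in different groups (Pearson r = 0.980 across genes, against 0.957 to 0.974 for the other pairs), so results are also given without them where this changes a statement. In bulk RNA such as this, fewer cells of a type and less RNA per cell cannot be told apart.

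Along the pathway, transcripts of Hk2, the inducible hexokinase, were lower with HTR2C-positive medium, at 0.511 of the level with HTR2C-negative medium. The log2 fold change (HTR2C-positive minus HTR2C-negative) was positive for 25 of the 29 tested members (86.2%), against 52.1% of all tested genes. Hk3, another hexokinase, was 1.49-fold higher, Tkt (transketolase) 1.38-fold, and Pgls, of the oxidative pentose arm, 1.58-fold. Among core enzymes, Pgk1, Pgam1 and Pfkp, with the regulator Pfkfb3, had fold changes between 0.919 and 1.06. Others were higher: Pfkl at 1.268, Aldoa at 1.241, Gpi1 at 1.216, Pkm at 1.196, Eno1 at 1.181 and Tpi1 at 1.18. Of these higher ones, only Aldoa had groups that did not overlap. No member passed the adjusted threshold: by edgeR's quasi-likelihood test with Benjamini-Hochberg adjustment over all genes, 0 of 29 had an adjusted p under 0.05, against 0% of all tested genes. At an unadjusted p under 0.05, 4 members (13.8%) were higher and 1 (3.45%) lower, where 7.9% of all tested genes were higher and 8.71% lower. DESeq2 called 1 member higher (Hk3) and 1 lower (Hk2) at an adjusted p under 0.05, against 1.31% and 2.56% of all tested genes, and limma-voom called 0. At an unadjusted p under 0.05, DESeq2 gave 4 higher and 1 lower (7.67% and 8.86% of all tested genes), and limma-voom gave 2 higher and 1 lower (7.52% and 8.96%).

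**Figure D1:**
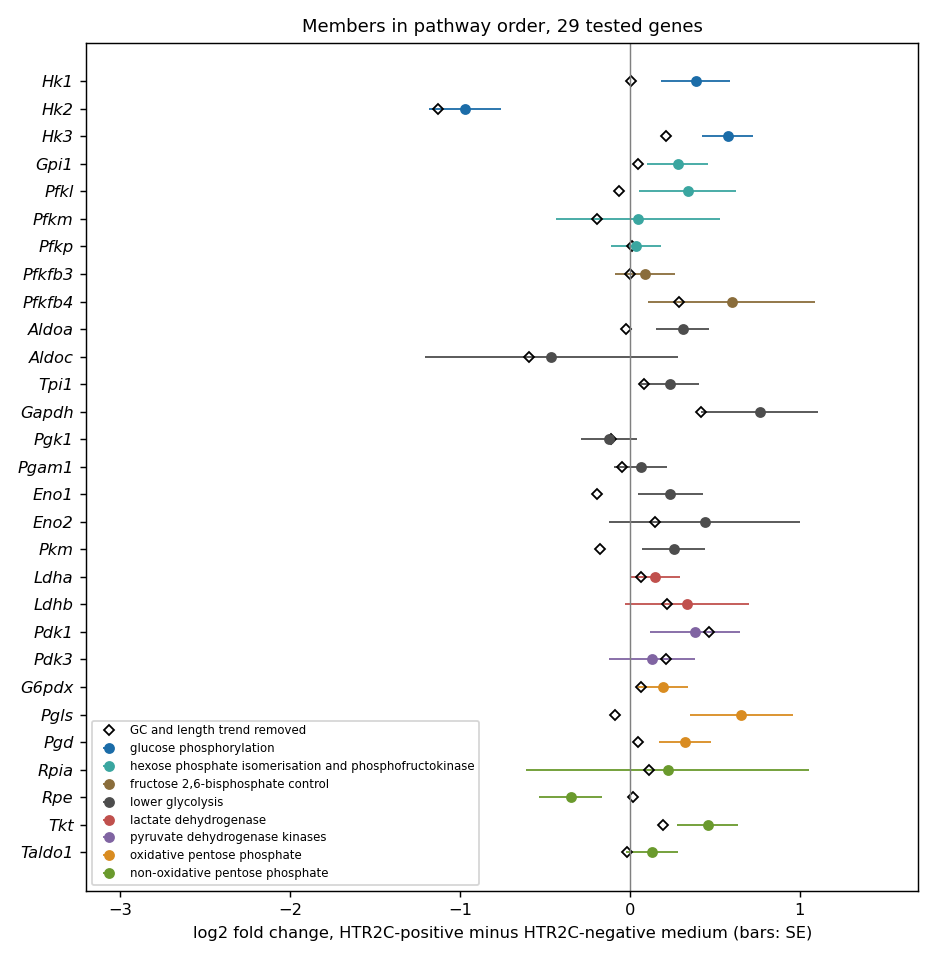
Log2 fold change of the 29 tested genes in pathway order (x axis, HTR2C-positive minus HTR2C-negative medium), coloured by role, with filled points and bars for the estimate and its standard error and open diamonds for the estimate once the trend over GC content and length is taken out. Hk2 lies alone at the left at -0.97, most other filled points lie right of 0, and most open diamonds lie close to 0.

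The median log2 fold change of the 29 genes was 0.24 (quartiles 0.089 and 0.39), where that of all tested genes was 0.02 (quartiles -0.26 and 0.32). The groups did not overlap for 6 members that were higher (20.7%; 10.9% of all tested genes) and 1 that was lower (3.45%; 11.5%). These were Hk1, Hk3, Aldoa, G6pdx, Pgd and Tkt on the higher side and Hk2 on the lower.

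Fold changes in these libraries followed the GC content of the transcript. Over all tested genes with a GC value, Spearman's rho between GC content and log2 fold change was 0.558 (n = 10162 genes, which share libraries and are not independent). The median log2 fold change went from -0.32 to 0.50 between the GC-poorest and the GC-richest of 10 equal bins of genes. Of the 29 members, 25 lay in the 5 GC-rich bins. With each library's trend over GC content and length removed, the members' median was 0.019, with 18 positive and 11 negative, and the members with an unadjusted p under 0.05 were 0 higher and 1 lower (3.68% and 5.79% of all tested genes). The medium and the trend cannot be told apart here, since removing the trend also removes any effect of the medium that follows GC content. Hk2 went against the trend: genes in its own GC bin had a median of 0.12.

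**Figure D2:**
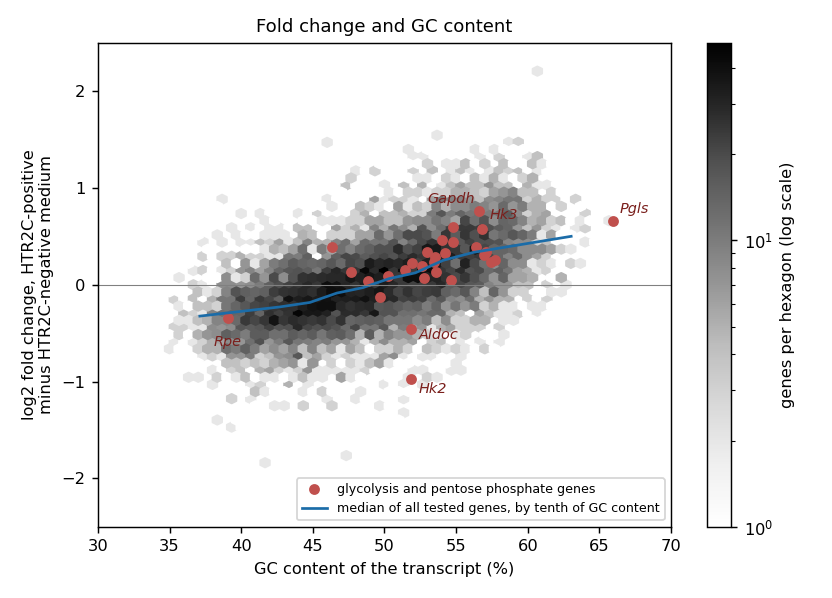
Log2 fold change (y axis) against transcript GC content in percent (x axis) for all tested genes (grey hexagons, darker for more genes) and for the 29 members (red points), with the median of each of 10 equal bins as a blue line. Most members follow the rising line, and Hk2 lies well below it at a GC content of 51.9%.

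Hexokinases trap glucose in the cell by phosphorylating it. Hk2 (ENSMUSG00000000628, chromosome 6, 82702006 to 82751435, GRCm39) is the inducible enzyme, Hk1 the housekeeping enzyme, and Hk3 an enzyme typical of myeloid cells. Hk2 was at 1040, 626 and 877 CPM in N1 to N3, and at 359, 552 and 389 CPM in P1 to P3. Every P library was below every N library, with N2 nearest to the P libraries and P2 nearest to the N libraries. The means were 848 ± 209 and 433 ± 104 CPM (SD, n = 3 each), a log2 fold change of -0.97 (SE 0.21) with an unadjusted p of 0.000559 and an adjusted p of 0.0805 in edgeR's fit over all genes. This p ranked 70 among all 10177 genes. Its value was -1.13 after the GC and length trend was removed (unadjusted p = 0.000493, adjusted p = 0.275).

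Hk3 (ENSMUSG00000025877, chromosome 13, 55153798 to 55169198, GRCm39) was at 75.7, 102 and 90.4 CPM in N1 to N3 and at 135, 137 and 128 CPM in P1 to P3. The P libraries were close together and all above the N libraries. The means were 89.5 ± 13.4 and 134 ± 4.52 CPM (SD, n = 3 each), a log2 fold change of 0.58 with SE 0.15 (unadjusted p = 0.00227, adjusted p = 0.113, edgeR). With the trend removed it was 0.21 (unadjusted p = 0.113), so the value for Hk3 shrank with the trend removed and that for Hk2 did not. The neutrophil marker sum given above was also higher in P libraries, with overlap, though the neutrophil marker Mmp8 was lower. The part of neutrophils in the level of Hk3 was not tested. Hk1 was at 11.3, 15.7 and 11.2 CPM in N1 to N3 and at 15.8, 17.2 and 16.97 CPM in P1 to P3, a log2 fold change of 0.39 with SE 0.20 (adjusted p = 0.360, edgeR), and of 0.0098 with the trend removed.

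Per length, the hexokinase shares of the groups were apart in these 6 libraries, though neither Hk2 nor Hk3 passed the adjusted threshold in edgeR's fit. Of the summed hexokinase FPKM (fragments relative to gene length and library total, as deposited), Hk2 made up 88.8%, 78.0% and 85.0% in N1 to N3 and 60.9%, 70.2% and 63.9% in P1 to P3. Hk3 made up 10.5%, 20.7% and 14.2% in the N libraries and 37.2%, 28.3% and 34.2% in the P libraries. A scaling factor common to all genes of a library cancels in these shares, but the trend over GC content and length was not removed from them. The groups did not overlap for either gene. As parts of the same sum, the shares of Hk2 and Hk3 are not independent, and they restate the levels of the members with the smallest p. Hk2 remained the most abundant hexokinase transcript in all 6 libraries, at 1.64 to 2.48 times Hk3 per length in P libraries and 3.77 to 8.48 times in N libraries. The summed hexokinase FPKM was 142 to 173 in N libraries and 109 to 127 in P libraries. With 3 libraries per group an exact permutation test cannot give a two-sided p below 0.10, so the shares are given without a test.

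**Figure D3:**
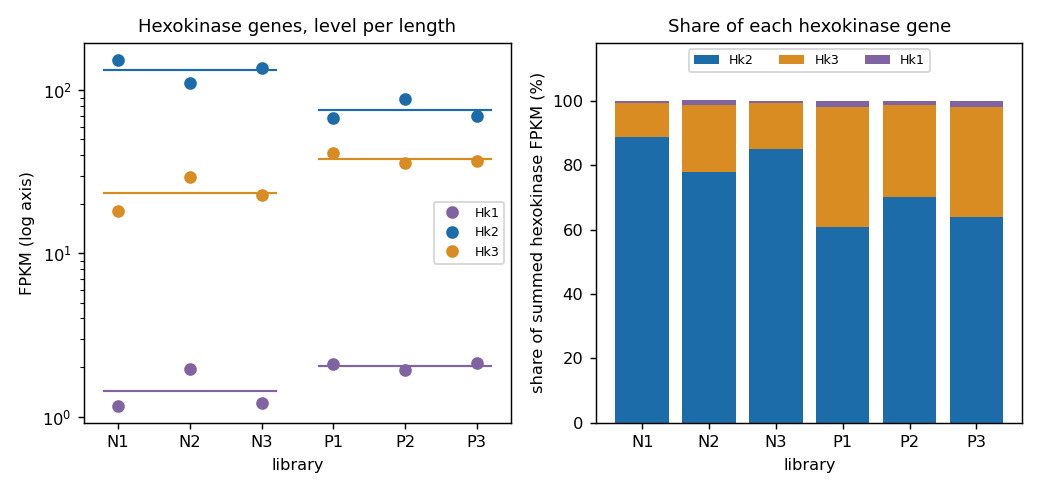
Left, deposited FPKM of Hk1, Hk2 and Hk3 in each library (points, log axis), with the mean of each group as a line; right, the share of each gene in the summed hexokinase FPKM (stacked bars, percent). The Hk2 share is 78.0% to 88.8% in N libraries and 60.9% to 70.2% in P libraries.

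The promoters of Hk2 and Hk3, the members with the smallest p and with opposite signs, are shown for their letters. They are the 250 bases before the annotated start from RefSeq on GRCm38.p6, Hk2 at chr6:82774455-82774704 and Hk3 at chr13:55021386-55021635, both on the minus strand and written 5′ to 3′ along the gene. Capitals mark ACGTG, a form of the core of the hypoxia response element bound by HIF-1, on either strand (CACGT when on the other strand). The other form, GCGTG, was not searched for. ACGTG is also part of the E-box CACGTG.
Hk2: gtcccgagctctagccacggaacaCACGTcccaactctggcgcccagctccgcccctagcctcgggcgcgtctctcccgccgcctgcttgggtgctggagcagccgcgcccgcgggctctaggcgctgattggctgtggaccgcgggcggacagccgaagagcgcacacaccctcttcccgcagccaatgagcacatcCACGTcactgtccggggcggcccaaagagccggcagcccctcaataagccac
Hk3: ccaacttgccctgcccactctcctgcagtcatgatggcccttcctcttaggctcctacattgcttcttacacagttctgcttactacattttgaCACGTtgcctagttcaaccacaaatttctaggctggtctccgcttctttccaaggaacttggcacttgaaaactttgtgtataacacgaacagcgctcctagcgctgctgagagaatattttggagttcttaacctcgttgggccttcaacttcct
Hk2 held 2 matches, starting 226 and 52 bases before the start, in a window of 69.6% GC, and Hk3 held 1, at 156 bases, in a window of 47.2% GC. All 32 symbols matched the RefSeq promoter table, with 49 windows because several genes have more than 1 start. ACGTG was found in 16 of the 49 windows (32.7%) and in 16.6% of all 32851 windows of the same length. Counted by gene, 12 of 32 members (37.5%) and 18.5% of all symbols had it in at least 1 window. A match says only that these letters are present.

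The next steps turn glucose 6-phosphate into fructose 1,6-bisphosphate. Gpi1, the isomerase, was at 58.04, 84.8 and 58.8 CPM in N1 to N3 and at 93.1, 76.6 and 75.7 CPM in P1 to P3. N2 lay within the range of the P libraries, and the log2 fold change was 0.28 (SE 0.18, adjusted p = 0.444, edgeR). Of the phosphofructokinases, which catalyse the committed step, Pfkl (the liver-type subunit) and Pfkp (the platelet-type subunit) gave nearly all transcripts per length, 51.2% ± 5.44 and 44.5% ± 5.99 with HTR2C-negative and 55.2% ± 8.83 and 40.9% ± 9.65 with HTR2C-positive medium (SD, n = 3 each). Pfkm, the muscle-type subunit, made up 2.80% to 5.53%. Pfkl was at 48.9, 81.1 and 47.4 CPM in N1 to N3 and at 115, 55.4 and 54.1 CPM in P1 to P3. Its highest values were those of P1 and N2, and its log2 fold change of 0.34 (SE 0.29) became -0.09 without P1. Pfkp was level across the groups, at 86.4 to 110 CPM and 99.9 to 106 CPM (log2 fold change 0.04, SE 0.15).

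The bifunctional PFKFB enzymes set the level of fructose 2,6-bisphosphate, the activator of phosphofructokinase. Pfkfb3, the form with the highest kinase activity, accounted for 99.0% to 99.7% of their transcripts per length in every library. It was at 502, 591 and 473 CPM in N1 to N3 and at 658, 436 and 571 CPM in P1 to P3. The groups overlapped, with the highest and the lowest value both in P libraries, and the log2 fold change was 0.09 (SE 0.18, adjusted p = 0.836, edgeR). Pfkfb4 stayed at 1.21 to 4.22 CPM in all libraries, with its highest value in P1; its log2 fold change of 0.60 (SE 0.49) was 0.0003 without P1. Pfkfb2 had 1 count in N1, 8 in P2 and 0 in the rest, where 0 counts allow up to 0.171 to 0.206 CPM, and was not tested.

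Lower glycolysis runs from the splitting of fructose 1,6-bisphosphate by aldolase to pyruvate. Aldoa (ENSMUSG00000030695) had the highest FPKM of all members, with a mean of 258.5 over the 6 libraries. It was at 574, 766 and 648 CPM in N1 to N3 and at 858, 813 and 796 CPM in P1 to P3. All P libraries lay above all N libraries, N2 by the smallest gap, with a log2 fold change of 0.31 with SE 0.16 (adjusted p = 0.335, edgeR) that became -0.02 once the trend was removed. The other Aldoa identifier had 7 counts in P3 and 0 elsewhere. Aldoc, the brain-type aldolase, was near the detection limit at 0.331 to 3.37 CPM, highest in P1 and N2.

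Pgk1 and Tpi1 make up the middle of this segment. Pgk1 (phosphoglycerate kinase), next to Aldoa in FPKM with a mean of 158.6, was at 348 to 390 CPM in N libraries and 270 to 390 CPM in P libraries (log2 fold change -0.12, SE 0.17). Its lowest value was that of P1, and the sign turned without P1 (0.04) and with library totals alone (0.0061). Tpi1 (triose phosphate isomerase) was at 101 to 124 and 106 to 157 CPM (0.24, SE 0.17). Pgam1 (phosphoglycerate mutase) was at 64.9 to 82.7 and 66.9 to 81.7 CPM, a log2 fold change of 0.06 (SE 0.16). Eno1 (enolase) was at 182 to 249 and 207 to 307 CPM (0.24, SE 0.19) and Pkm (pyruvate kinase) at 270 to 425 and 360 to 458 CPM (0.26, SE 0.18). For Eno1 and Pkm the values with the trend removed were -0.19 and -0.17. Eno2, the neuronal form, stayed at 0.707 to 1.77 CPM. None of these genes had an unadjusted p under 0.05, and in each the groups overlapped.

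Gapdh (ENSMUSG00000057666, chromosome 6, 125138678 to 125143430, GRCm39), the glyceraldehyde phosphate dehydrogenase often used as a reference transcript, stood far below its neighbours in the pathway. It had 40, 105 and 131 counts in N1 to N3 and 131, 158 and 258 counts in P1 to P3. Its mean FPKM was 2.18, against 45.7 for Tpi1 and 158.6 for Pgk1, the enzymes just before and after it. Of the 50-base stretches of its longest protein-coding transcript in GENCODE M21, 82.5% also occur in transcripts of other annotated genes, 222 of them, of which 215 are pseudogenes. How the deposited counts treat reads that map to several places is not given in the sources used here, so the level and the fold change of Gapdh are uncertain. As counted, it was at 3.53, 7.21 and 8.80 CPM in N1 to N3 and at 7.47, 10.5 and 15.6 CPM in P1 to P3, so the groups overlapped. The log2 fold change was 0.77 (SE 0.34, unadjusted p = 0.0441, adjusted p = 0.286, edgeR), and 0.42 (unadjusted p = 0.247) with the trend removed. After Gapdh, shared stretches were most common in Eno1 (72.2%), Pgk1 (68.0%), Pgam1 (41.5%) and Pkm (34.4%), whose levels are uncertain too. With Gapdh and these, 14 members shared over 10% of their stretches with other genes, while Hk2, Hk3, Tkt and Pgls had none. How far such sharing altered the counts was not tested.

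**Figure D4:**
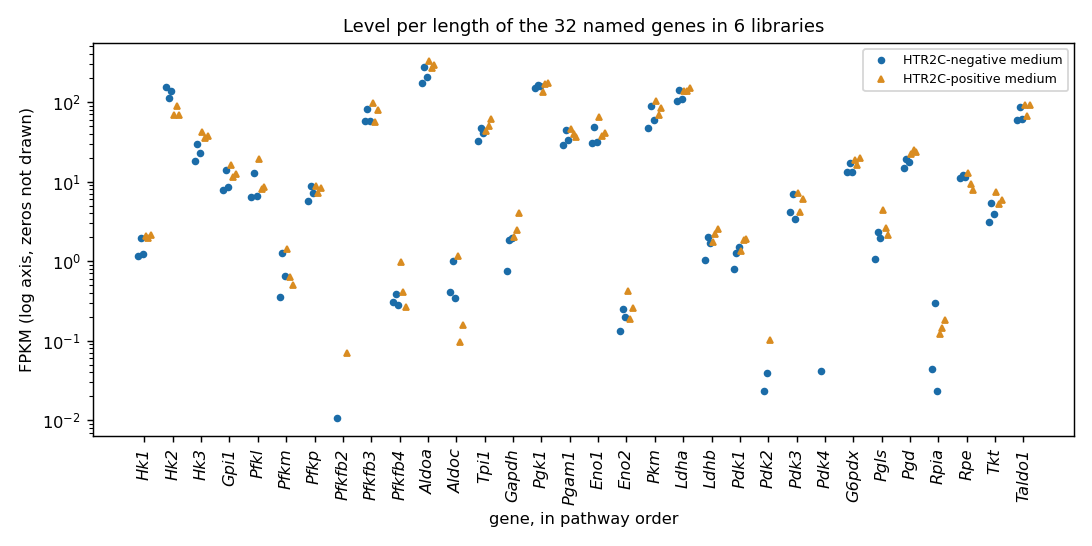
Deposited FPKM (log axis) of the 32 named genes in pathway order, with a blue circle for each HTR2C-negative and an orange triangle for each HTR2C-positive library. Libraries with 0 are not drawn. Aldoa is the highest, and Gapdh, with a mean of 2.18, lies well below Tpi1 and Pgk1 beside it.

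Lactate dehydrogenase interconverts pyruvate and lactate. Ldha, the subunit that favours lactate formation, gave 98.4% to 99.0% of the transcripts per length, and Ldhb, the heart-type subunit, the rest. Ldha was at 385, 444 and 384 CPM in N1 to N3 and at 405, 475 and 464 CPM in P1 to P3. N2 lay within the range of the P libraries, and the log2 fold change was 0.15 (SE 0.15, adjusted p = 0.644, edgeR). Ldhb was at 1.86 to 2.95 CPM in N libraries and 2.45 to 3.69 CPM in P libraries (0.34, SE 0.36). The promoter of Ldha is shown because it holds the most ACGTG matches of all member windows. It is the RefSeq window chr7:46845554-46845803 on the plus strand of GRCm38.p6, with matches on either strand in capitals.
Ldha: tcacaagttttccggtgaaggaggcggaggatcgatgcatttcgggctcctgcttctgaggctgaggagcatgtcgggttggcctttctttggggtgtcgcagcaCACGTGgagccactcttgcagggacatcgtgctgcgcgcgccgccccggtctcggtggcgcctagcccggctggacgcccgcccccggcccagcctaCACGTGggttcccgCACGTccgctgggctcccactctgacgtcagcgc
It held 2 E-boxes CACGTG, each of which counts on both strands, at 145 and 48 bases before the start, and a further CACGT at 34 bases. CACGTG occurred in 5 of the 49 member windows and in 6.02% of all windows. Ldha and Hk2, both with matches, had fold changes of 1.11 and 0.511.

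Pyruvate dehydrogenase kinases switch off the enzyme that feeds pyruvate into the mitochondrion. Pdk3 and Pdk1 were the forms present, at 68.8% to 83.9% and 15.2% to 30.7% of the transcripts per length. Pdk1, a known HIF-1 target, was at 7.07, 9.41 and 12.4 CPM in N1 to N3 and at 9.12, 14.9 and 13.95 CPM in P1 to P3. P1 lay among the N libraries. The log2 fold change was 0.39 (SE 0.26, adjusted p = 0.485, edgeR), and 0.47 with the trend removed, since its transcript is poor in GC (46.4%). Pdk3 was at 12.1, 16.97 and 9.27 CPM in N1 to N3 and at 16.5, 11.04 and 14.4 CPM in P1 to P3. These groups overlapped (log2 fold change 0.13, SE 0.25). Pdk2 and Pdk4 had at most 5 counts in any library and were not tested.

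The oxidative pentose phosphate arm starts with G6pdx (glucose 6-phosphate dehydrogenase), its gatekeeper. G6pdx was at 46.1, 49.2 and 44.1 CPM in N1 to N3 and at 50.7, 51.6 and 57.6 CPM in P1 to P3. The groups were apart, but by little, with a log2 fold change of 0.20 with SE 0.15 (adjusted p = 0.528, edgeR), and of 0.067 once the trend was removed. Pgls, the lactonase, is expressed at a lower level. It was at 4.51, 8.18 and 7.86 CPM in N1 to N3 and at 14.8, 10.3 and 7.55 CPM in P1 to P3, with P3 among the N libraries. Its log2 fold change of 0.66 (SE 0.30, unadjusted p = 0.0493, adjusted p = 0.298, edgeR) was 0.39 without P1 and -0.09 with the trend removed. Its transcript has the highest GC content of the tested members, 65.9%.
Pgd, the 6-phosphogluconate dehydrogenase, which makes a further NADPH, was at 110, 116 and 123 CPM in N1 to N3 and at 126, 168 and 143 CPM in P1 to P3. All P libraries were above all N libraries, N3 and P1 being close. The log2 fold change was 0.32 (SE 0.15, unadjusted p = 0.0536, adjusted p = 0.309, edgeR), and 0.05 with the trend removed.

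In the non-oxidative arm, Tkt (ENSMUSG00000021957, chromosome 14, 30270316 to 30296677, GRCm39), which moves carbon pairs between sugar phosphates, was at 25.5, 37.0 and 31.4 CPM in N1 to N3 and at 48.6, 40.0 and 40.7 CPM in P1 to P3. The groups were apart, with N2 nearest to the P libraries. The log2 fold change was 0.46 (SE 0.18, unadjusted p = 0.0233, adjusted p = 0.226, edgeR), and 0.20 (unadjusted p = 0.215) with the trend removed. Taldo1 (transaldolase), which had the highest FPKM of the pentose phosphate genes with a mean of 76.2, was at 146, 178 and 144 CPM in N1 to N3 and at 177, 150 and 185 CPM in P1 to P3. These groups overlapped (log2 fold change 0.13, SE 0.15). Rpe, an epimerase, differed in sign from the rest of the arm, at 35.0 to 39.5 CPM in N libraries and 23.01 to 35.5 CPM in P libraries. Its log2 fold change was -0.35 (SE 0.18, adjusted p = 0.363, edgeR). It is the member poorest in GC (39.1%), and with the trend removed the value was 0.019. Rpia, an isomerase, had 2 to 22 counts per library.

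By library, most members other than Hk2 were low in N1 and N3. Among these 28 tested genes, N1 had the lowest level of all 6 libraries in 15 and N3 in 8, while P1 had the highest in 12. N2 was above the gene's mean over the libraries in 19 of the 28, as were P1 in 21, P2 in 17 and P3 in 20, but N1 only in 3 and N3 in 6. Pgk1 and Rpe differed from this, with values above their means in both N1 and N3. Over all tested genes in the 5 GC-rich bins, where most members lie, N1 was lowest in 33.3%, N3 in 19.6%, and P1 highest in 32.5%. For the 28 members these shares were 53.6%, 28.6% and 42.9%. Over all tested genes they were 21.6%, 14.3% and 22%. N2 was above the mean in 67.9% of the members, 49.7% of the GC-rich genes and 52.8% of all tested genes. Without N2 and P1, 5 members were higher at an adjusted p under 0.05 (Hk3, Aldoa, Tpi1, Gapdh and Pgd) and 1 lower (Hk2), where edgeR called 4.48% of 10156 tested genes higher and 6.42% lower. The members with an unadjusted p under 0.05 were 11 higher and 2 lower, against 11.2% and 12.7% of all tested genes. Leaving out the pair of libraries most alike across the groups widens the difference between groups by construction.

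**Figure D5:**
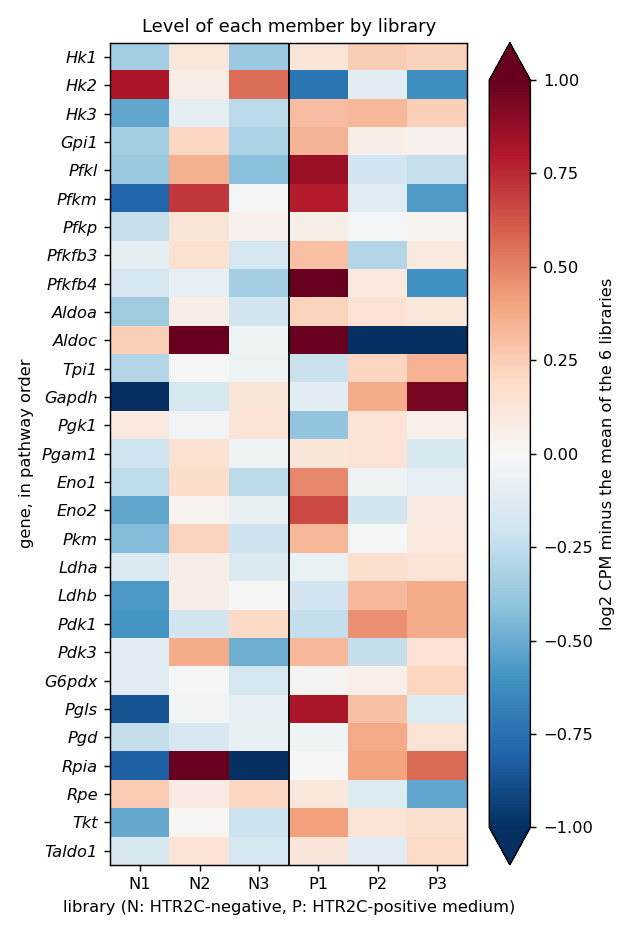
Log2 CPM of each tested member (rows, pathway order) minus its mean over the 6 libraries, by library (columns), red for higher and blue for lower, with colours saturated beyond 1 and -1. Hk2 is red in N1 and N3 and blue in P1 and P3; many other genes are blue in N1 and N3, with N2 and P1 alike in several.

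Other genes of glucose metabolism were examined in 7 lists. No gene in them had an adjusted p under 0.05 in edgeR's fit, and the counts below are at an unadjusted p under 0.05, against the 7.9% and 8.71% given above. Of 11 tested transport genes, 2 were higher and 0 lower (median log2 fold change 0.0091). Slc2a6, a glucose transporter family gene of the lysosome in activated macrophages, was at 109, 201 and 140 CPM in N1 to N3 and at 437, 199 and 212 CPM in P1 to P3, a log2 fold change of 0.92 (SE 0.29), with P1 far above the rest and P2 level with N2. The lactate exporter gene Slc16a3 had a log2 fold change of 0.58 (SE 0.24) and Slc2a1, the main glucose importer, 0.34 (SE 0.16, unadjusted p = 0.0518). With the trend removed these were 0.48, 0.20 and 0.12. Slc16a3 and Slc2a1 also belong to the hypoxia-response list.

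Of 12 tested genes of pyruvate entry and pyruvate dehydrogenase, 3 had a positive and 9 a negative fold change (median -0.26). Over all tested genes, 52.1% had a positive one. At an unadjusted p under 0.05, 0 were higher and 1 lower. The latter was Dld, a shared subunit of the dehydrogenase complexes, at -0.34 (SE 0.15), and at -0.013 after trend removal. Their transcripts were poorer in GC than the members' (medians of 47.3% and 53.5%), and the median became -0.05 once the trend was removed. Of 16 tested side enzymes and other isoenzymes, 0 were higher or lower. Tigar, a phosphatase that lowers fructose 2,6-bisphosphate, had 12 to 36 counts per library and a log2 fold change of -0.61 (SE 0.55). Shpk, the sedoheptulose kinase, had at most 1 count per library.

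Regulators and hypoxia-response genes went in both directions, with more negative than positive fold changes. Of 22 tested regulators, 9 had a positive and 13 a negative fold change, where 52.1% of all tested genes had a positive one. At an unadjusted p under 0.05, 2 regulators were higher and 1 lower (median -0.08). Hif1a was at 439 to 499 CPM in N libraries and 272 to 448 CPM in P libraries (log2 fold change -0.30, SE 0.19), with its lowest value in P1. Prkaa1, a catalytic subunit of the energy sensor AMPK, was at -0.62 (SE 0.19), Rptor, of mTORC1, at 0.71 (SE 0.27) and the oxygen sensor gene Egln2 at 0.72 (SE 0.31). After trend removal these 3 values were -0.29, 0.31 and 0.18, none with an unadjusted p under 0.05. Egln2 was highest in P1, at 35.6 CPM, while P2 (20.4 CPM) and P3 (16.6 CPM) lay below N2 (21.2 CPM). Of 20 tested hypoxia-response genes outside glycolysis, 2 were higher and 3 lower (median -0.09), and 7 had a positive and 13 a negative fold change. The groups did not overlap for 1 that was higher and 4 that were lower, against 10.9% and 11.5% of all tested genes. Bnip3, which acts in mitophagy, was at 44.4, 36.5 and 40.8 CPM in N1 to N3 and at 30.2, 26.7 and 26.3 CPM in P1 to P3. These groups were apart, with a log2 fold change of -0.55 with SE 0.16 (adjusted p = 0.140, edgeR), and the histone demethylase gene Kdm3a was at -0.61 (SE 0.19, adjusted p = 0.150, edgeR). Ddit4, an mTORC1 inhibitor, was at 1.18 (SE 0.48), at low counts of 17, 23 and 19 in N1 to N3 and 32, 86 and 40 in P1 to P3. After trend removal Bnip3 was at -0.27 (unadjusted p = 0.0955), Kdm3a at -0.50 (unadjusted p = 0.014) and Ddit4 at 0.85 (unadjusted p = 0.0926).

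Among 18 tested genes of other NADPH sources and users, 1 was higher and 3 lower (median 0.05). Idh1, the cytosolic isocitrate dehydrogenase that makes NADPH, was at 115, 93.4 and 109 CPM in N1 to N3 and at 75.1, 66.6 and 62.2 CPM in P1 to P3. The groups were apart, with a log2 fold change of -0.64 with SE 0.15 (adjusted p = 0.0885, edgeR), and -0.41 (unadjusted p = 0.00955) with the trend removed. The oxidase subunit genes Ncf1 and Cybb were at 0.56 (SE 0.18) and -0.49 (SE 0.15), and after trend removal at 0.37 (unadjusted p = 0.0319) and -0.24 (unadjusted p = 0.081). Of 13 tested genes of gluconeogenesis and glycogen, 1 was higher and 1 lower. These were Pygb, a glycogen phosphorylase, at 0.95 (SE 0.42; 0.70 after trend removal), and G6pc3, a glucose 6-phosphatase, at 8.04, 9.41 and 10.7 CPM in N1 to N3 and 8.04, 5.69 and 5.20 CPM in P1 to P3. For G6pc3 the log2 fold change was -0.57 (SE 0.26), and -0.92 with the trend removed.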

How the data were processed

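RNA-seq of 6 libraries, 3 per medium, was analysed from a deposited table of whole-number read counts and FPKM per gene, with GRCm39 coordinates. Tools listed by the submitters' processing notes, with no versions, are fastp, HISAT2, StringTie and edgeR. How reads were counted, with which annotation and strand setting, is not given in the sources used here. Counts, as deposited, were taken as raw. Each deposited FPKM value equals the count over the gene length and library total (largest relative difference 3.8e-07). The fit to the counts used edgeR 4.0.16 (R 4.3.3): filterByExpr, TMM factors and the robust quasi-likelihood test over all genes, threshold 0.05 on Benjamini-Hochberg adjusted p-values. Log2 fold changes and SE come from that fit, CPM are TMM-scaled. Alternatives used limma 3.58.1, DESeq2 1.42.0, other scalings, filters and sample sets, and a loess fit (span 0.5) of each library's deviation on GC content and length. GC content and shared 50-base stretches come from the longest protein-coding GENCODE M21 transcript, on GRCm38, without coordinates; 15 tested genes had no GC value. A count of 0 allows up to 3 counts, for counting error only; the reads carry no molecular identifiers. The members and lists were chosen with earlier results of these data known. Named genes are all members, with values in every library for those with an unadjusted p under 0.05 and the most abundant of each role, and up to 4 genes with the smallest p of each related list plus Slc2a1, Slc16a3, Hif1a, Tigar and Shpk; values of further members were added where their groups did not overlap.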

Additional observations from a re-analysis of the deposited data

How the results depend on the processing

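Hk2 kept its sign in all 16 alternatives (log2 fold change -1.18 to -0.80, adjusted p 1.14e-05 to 0.775) and Hk3 did too (0.21 to 0.70). In edgeR without a count filter, 1 member was higher and 1 lower at an adjusted p under 0.05, of 422 genes called, with 4 genes in the related lists; in DESeq2 these counts were 1, 1, 394 and 3. At an unadjusted p under 0.05, limma-voom gave 2 members higher. Without N2 and P1 together, 5 members were higher and 1 lower at an adjusted p under 0.05, 11 and 2 at an unadjusted one, of 1107 genes called, with 11 in the related lists. Leaving out each library in turn gave 0 to 1 members lower at an adjusted p (1 without N2 and 1 without P1, Hk2 each time), 1 to 8 higher and 1 to 3 lower at an unadjusted p, 0 to 206 genes called (206 without N2, 186 without P1), 0 to 1 in the related lists and a median of 0.16 (without N1) to 0.40 (without N2). With library totals alone the median of all genes moved to 0.16 and that of the members to 0.37, so the members' distance from it was about the same. The labels do not say whether the replicate numbers pair the samples. Deviations of same-numbered libraries correlated at -0.152, -0.231 and 0.053, which cannot settle how the samples were made. With the number as a replicate block, the members at an unadjusted p under 0.05 were 2 higher and 1 lower, with 0 genes called. With the GC and length trend removed 0 members were higher and the median was 0.019 (0 and 0.015 with the replicate block in addition). The signs that turned with the trend removed were those of Pfkl (-0.065), Pfkm (-0.19), Aldoa (-0.025), Pgam1 (-0.047), Eno1 (-0.19), Pkm (-0.17), Pgls (-0.087), Taldo1 (-0.014) and Rpe (0.019). With the block in addition they were Pfkl (-0.13), Pfkm (-0.22), Pfkfb3 (-0.0068), Aldoa (-0.024), Pgam1 (-0.044), Eno1 (-0.21), Pkm (-0.17), Pgls (-0.12) and Taldo1 (-0.017). Pgk1 turned with library totals alone (0.0061). Leaving out each library in turn, signs turned within the ranges of Pfkm (-0.44 to 0.52), Pfkl (-0.092 to 0.64), Pfkp (-0.060 to 0.11), Pfkfb3 (-0.033 to 0.23), Pgam1 (-0.017 to 0.17), Aldoc (-2.20 to 0.053), Pdk3 (-0.046 to 0.40), Rpia (-0.25 to 1.92, and 2.10 without N2 and P1 together) and Pgk1 (-0.23 to 0.042). Apart from the trend and the omissions, which show it by construction, the cause was not tested. Depth limits Rpia, Eno2, Aldoc, Pfkm, Pfkfb4 and Ldhb, which had 2 to 74 counts per library.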
